A study of Homo sapiens with 20 samples.

Results

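The 36 genes described here encode the enzymes, and a few close helpers, that build fatty acids and turn them into glycerolipids. They were chosen by name as a functional set, with no measured value in the rule. Earlier results of these data were known when the set was chosen. By gene symbol, 35 of the 36 matched 1 of the 57820 genes in the count files. ACACA, acetyl-CoA carboxylase alpha, was not matched and is not analysed here. Of the 35, 32 passed the filter on low counts and were tested together with all 18806 genes that passed it. The 3 that did not pass were ME1 (malic enzyme, which makes NADPH), with 0 to 6 fragments per library, ACSL5 (a long-chain acyl-CoA synthetase), also with 0 to 6, and LPIN2 (a phosphatidate phosphatase), with 0 in all 16 libraries.

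The cells were T47D, an established human breast cancer line of luminal type that carries the progesterone receptor. Per the labels, which give no protocol for the first si-CBX3 0 h library, they had been held in medium stripped of hormone and then without serum, and were collected before (0 h) or 6 h after addition of 10 nM R5020, a synthetic progestin. They had received a control siRNA (si-control) or one directed at BRG1 (gene SMARCA4, the motor subunit of the SWI/SNF chromatin remodeller), at CBX3 (the heterochromatin protein HP1 gamma) or at FOXA1 (a pioneer transcription factor). Each of these 8 groups held 2 RNA-seq libraries, 1 library at each time came from cells without siRNA, and BRG1 binding was given as 1 list of ChIP-seq peaks at 0 min and 1 at 30 min of hormone. The title of the series asks how hormone represses genes through BRG1 and the linker histone H1.2; the lipid genes are a readout beside that question. All results come from this 1 line, and whether the 2 libraries of a group are separate cultures is not stated, so each p-value reflects the spread between libraries that may be technical replicates.

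Fatty acids are made in the cytosol. ATP citrate lyase and acetyl-CoA synthetase supply acetyl-CoA, acetyl-CoA carboxylase turns it into malonyl-CoA, and fatty acid synthase joins these units into palmitate. Elongases lengthen the chain and desaturases place double bonds in it, acyl-CoA synthetases activate it for use, and a chain of acyltransferases and phosphatases (GPAM, AGPAT, lipin and DGAT enzymes) joins it to glycerol to give phospholipids and triglyceride. The SREBP transcription factors switch on many of these genes when sterols or unsaturated lipids are scarce, and breast cancer cells are known for high fatty acid synthesis and for its induction by progestins and androgens.

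Library totals ranged from 50017255 to 74374857 fragments, and values below are CPM, fragment counts scaled to the size of the library with TMM factors. Each siRNA lowered its own target at 0 h: SMARCA4 was at 4.99 and 5.900 CPM in si-BRG1 against 76.5 and 65.7 in si-control, CBX3 at 6.796 and 6.37 in si-CBX3 against 242 and 266, and FOXA1 at 61.4 and 62.8 in si-FOXA1 against 389 and 408. SMARCA4 was also higher than si-control in si-CBX3 (184 and 175) and in si-FOXA1 (183 and 187). R5020 itself lowered FOXA1 in si-control (199 and 166 CPM at 6 h, log2 -1.12). FOXA1 was also called lower with R5020 in si-BRG1 (log2 -1.31), si-CBX3 (-1.02) and si-FOXA1 (-0.46). In si-CBX3 alone, R5020 also lowered CBX3 (log2 -0.95) and SMARCA4 (-0.59). The part of these falls in the differences between siRNAs in hormone response was not tested. The si-CBX3 and si-FOXA1 files were counted with 1 thread and the si-BRG1 and si-control files with 8. These are 2 sets by this setting, and si-CBX3 or si-FOXA1 against si-control crosses them. The setting does not say whether the libraries of a set were prepared or counted together. The 9 luminal markers summed to 5876 to 11405 CPM, although TFF1 reached at most 1.57. The keratins KRT8, KRT18 and KRT19 had the highest medians (2365, 1317 and 3446 CPM). PGR, the gene of the progesterone receptor, ranged from 84.4 to 873 CPM over the libraries, and ESR1 from 75.0 to 292. Adipocyte markers, which matter for a lipid gene set, summed to 0.411 to 6.33 CPM over 7 genes. ADIPOQ ranged from 0.0356 to 6.12 CPM and PLIN1 from 0.0608 to 0.432, while LEP, FABP4, CIDEA and LPL were at 0 in 12 to 15 of the 16 libraries. Of 5 fibroblast markers, COL1A1 held 21.3 to 58.3 CPM and the other 4 at most 2.67. Leukocyte and endothelial markers summed to under 1 CPM in every library. The 4 basal markers summed to 6.78 to 7.01 CPM in si-FOXA1 at 0 h against 1.18 to 1.401 in si-control, and the adipocyte sum fell from 5.81 to 6.33 in si-control to 0.411 to 0.505 in si-FOXA1. Each sum is mostly 1 gene, TP63 and ADIPOQ. Over all libraries TP63 reached 6.51 CPM, but KRT5 at most 1.71, KRT14 0.499 and KRT17 0.321. Marker sums also differed between 0 and 6 h of R5020. The luminal sum was 8911 to 9070.2 CPM at 0 h and 7909 to 8239.7 at 6 h in si-control. It was 9098 to 9703 and 5876 to 6872 in si-BRG1, and 9069.97 to 9296 and 6403 to 6678 in si-CBX3. In si-FOXA1 it was 10809.6 to 11405 and 10067 to 10175. In si-control the basal sum was 0.227 to 0.378 at 6 h and the adipocyte sum 3.51 to 4.02, both below their values at 0 h. The part of these shifts in the lipid gene results, hormone responses included, was not tested. In bulk RNA, fewer cells that express a gene and less RNA per cell cannot be told apart.

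Before hormone, the levels in si-control spanned a wide range. Per kilobase of exon, SCD, the stearoyl-CoA desaturase that makes oleate, was highest at 476 ± 9.53 CPM per kb (SD, n = 2), followed by ACLY, ATP citrate lyase, at 253 ± 6.93 and FASN, fatty acid synthase, at 159 ± 6.77. HACD3, the dehydratase of the elongation cycle, stood at 80.3 ± 4.31, ELOVL1 at 69.7 ± 2.95, ELOVL5 at 53.2 ± 3.72 and ACSL1 at 47.7 ± 2.04. The 2 libraries of each of these 7 genes did not overlap those of the next gene in the order. Neighbours that did overlap were TECR, AGPAT3 and ELOVL7 (10.2, 9.897 and 9.36 CPM per kb), FADS1, LPIN1 and ELOVL6 (3.11, 3.04 and 2.998), LPIN3 and FADS2, PNPLA3 and FADS3, ACSL4 and DGAT2, and ELOVL2 and SCD5. At the low end of the genes tested, ACACB, the mitochondrial acetyl-CoA carboxylase, was at 0.1901 ± 0.0522 and THRSP, the Spot 14 regulator of lipogenesis, at 0.0431 ± 0.04200. Paralogues differed widely in level: SCD stood far above SCD5 (0.296), and DGAT1 (18.1) above DGAT2 (0.678 CPM per kb).

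**Figure D1:**
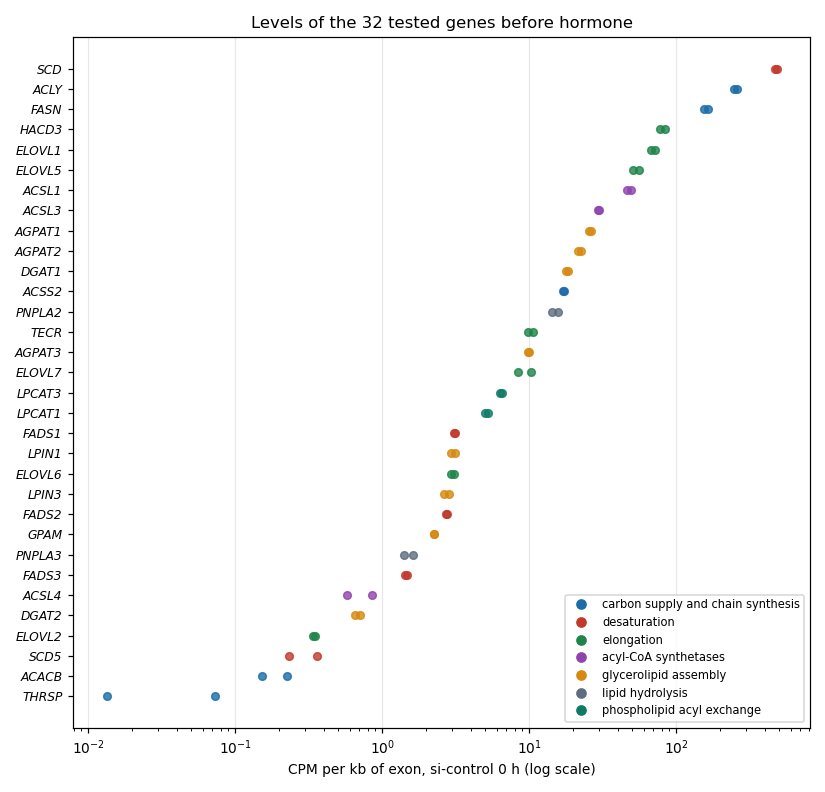
Level of each tested gene in the 2 si-control 0 h libraries, in CPM per kb of exon on a log axis; each point is 1 library and colours give the role. SCD, ACLY and FASN stand highest, and THRSP, ACACB and SCD5 lowest.

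At 6 h of R5020, more of these genes were called higher than lower under each of the 4 siRNAs, although their median difference in si-BRG1 was below 0. In si-control, 11 of 32 were called higher and 3 lower (adjusted p below 0.05, edgeR quasi-likelihood test), beside 37.6% of all genes called in either direction (19.5% higher, 18.1% lower), with a median log2 difference of 0.20 against -0.02 over all genes tested. In si-BRG1 the counts were 9 and 4 (35.7% of all genes called, 18.6% higher and 17.1% lower), with a median log2 difference of -0.09 against -0.03 over all genes tested. In si-CBX3 they were 12 and 5 (41.0% of all genes called, 20.4% higher and 20.5% lower), with a median log2 difference of 0.17 against -0.02 over all genes tested. In si-FOXA1 they were 15 and 6 (38.8% of all genes called, 19.1% higher and 19.6% lower), with a median log2 difference of 0.36 against -0.04 over all genes tested. The counts of lower genes rest on single libraries: that of si-control was 1 without si-control 6 h replicate 1, that of si-BRG1 was 2 without si-BRG1 0 h replicate 2 and 7 without si-BRG1 6 h replicate 2, and that of si-CBX3 was 2 without si-CBX3 0 h replicate 1 or 6 h replicate 2 and 0 without the other replicate at either time. At 1.5-fold or more, 4, 2, 7 and 9 of the 32 were called under si-control and under si-BRG1, si-CBX3 and si-FOXA1 in turn, beside 18.4%, 17.7%, 21.7% and 18.4% of all genes.

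The genes called higher under all 4 siRNAs were ELOVL1, ELOVL5 and ELOVL7 (elongases), ACSL1 and ACSL3 (acyl-CoA synthetases) and DGAT2 (the last step of triglyceride synthesis). These 6 of 32 stand beside 7.46% of all genes tested, and 5 of them, all but DGAT2, kept the 4 calls without any 1 library. The response of DGAT2 in si-control lost its call without si-control 0 h replicate 1 (log2 0.31) or si-control 6 h replicate 1 (0.25). That in si-BRG1 lost its call without si-BRG1 0 h replicate 1 (log2 0.42), si-BRG1 0 h replicate 2 (0.38) or si-BRG1 6 h replicate 1 (0.23). No member was called lower under all 4, beside 5.16% of all genes. By role, 4 of 7 elongation genes were called higher under each siRNA, and at least 2 of 3 acyl-CoA synthetases. The 4 elongation genes were ELOVL1, ELOVL5 and ELOVL7 throughout, with HACD3 in si-control, si-BRG1 and si-CBX3 and ELOVL2 in si-FOXA1. Elongation genes called lower were ELOVL6 in si-CBX3, and ELOVL6 and TECR in si-FOXA1. The scarce ELOVL2 lost its si-FOXA1 call without si-FOXA1 0 h replicate 2 (log2 0.67), 6 h replicate 1 (0.82) or 6 h replicate 2 (0.95). Of the 5 tested genes of carbon supply and chain synthesis 0 were called higher in si-control, si-BRG1 and si-FOXA1 and 1 (THRSP, at under 1 CPM) in si-CBX3. That THRSP response lost its call without any 1 of the 4 libraries (log2 2.18 to 3.08).

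**Figure D2:**
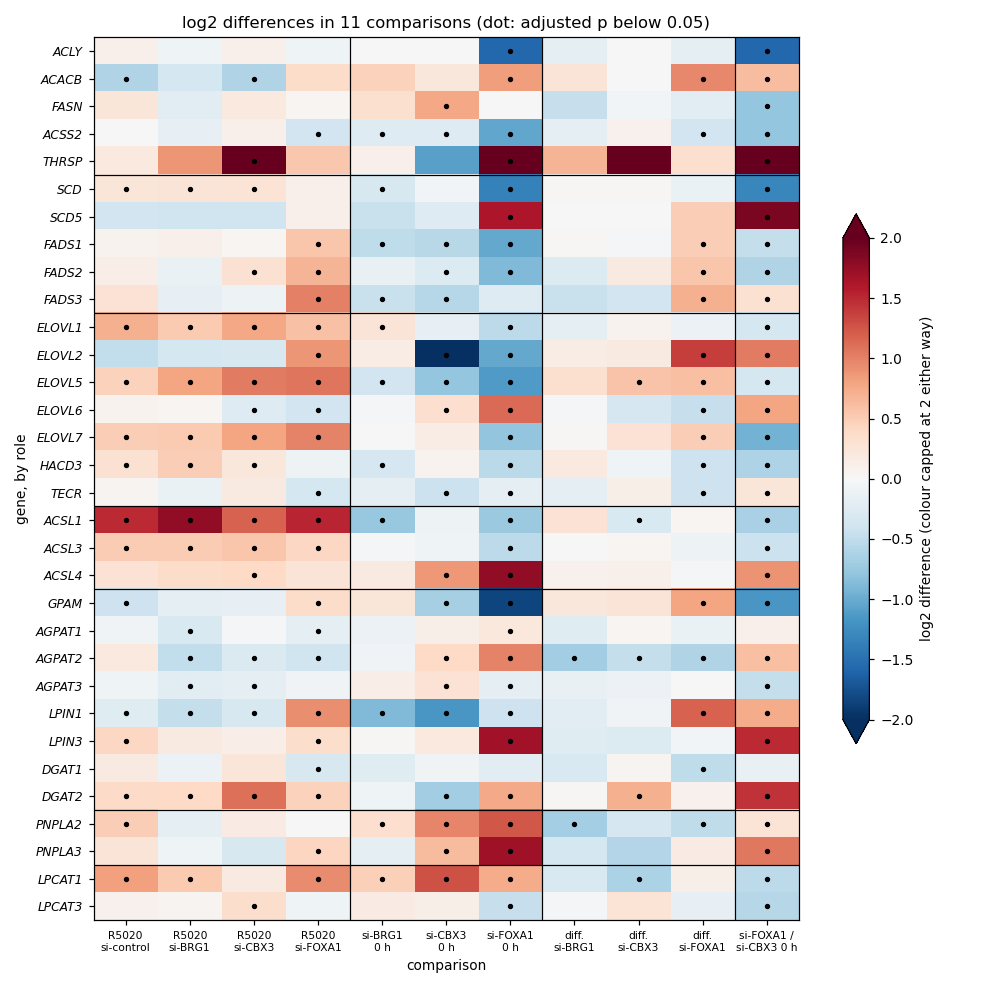
log2 differences of the 32 tested genes (rows, by role) in 11 comparisons (columns): 4 responses to R5020, 3 knockdowns before hormone, 3 differences of responses from si-control, and si-FOXA1 against si-CBX3. Red is higher and blue lower, colours are capped at 2 either way, and a dot marks an adjusted p below 0.05; the acyl-CoA synthetase rows are red in the 4 response columns and the 2 columns that set si-FOXA1 against another siRNA before hormone hold 29 and 30 dots.

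Before hormone, FOXA1 knockdown changed most of the set, in both directions. Against si-control, 12 of 32 were called higher and 17 lower, beside 73.5% of all genes called (40.0% higher and 33.5% lower), so a high count was the rule in this comparison; the members gave a median log2 difference of -0.24 against 0.11 over all genes tested. By role, 6 of 7 elongation genes were called lower and 1 higher, and 3 of 5 desaturation genes lower and 1 higher. The 8 glycerolipid assembly genes were split, with 4 called higher and 3 (GPAM, AGPAT3 and LPIN1) lower. Both lipases were called higher. Among these, the fall of TECR (log2 -0.19) lost its call without si-FOXA1 0 h replicate 1 (log2 -0.17), si-FOXA1 0 h replicate 2 (-0.21) or si-control 0 h replicate 2 (-0.18), and was -0.30 without si-control 0 h replicate 1. The rise of AGPAT1 (log2 0.22) lost its call without si-FOXA1 0 h replicate 2 (log2 0.19), si-control 0 h replicate 1 (0.13) or si-control 0 h replicate 2 (0.19). The fall of AGPAT3 lost its call without si-FOXA1 0 h replicate 1 (log2 -0.18). CBX3 knockdown gave 8 higher and 10 lower (54.1% of all genes called, 28.1% higher and 26.0% lower), with a median log2 difference of -0.06 against 0.05 over all genes tested. BRG1 knockdown gave 3 higher and 8 lower (28.5% of all genes called, 15.1% higher and 13.4% lower), with a median log2 difference of -0.05 against 0.03 over all genes tested. The balance over all genes turned with DESeq2-type size factors, to 2490 higher and 3065 lower for BRG1 knockdown (2841 and 2511 here). For CBX3 knockdown it turned to 4863 and 5320 (5283 and 4894 here). Of the members in BRG1 knockdown, the 3 higher became 1 without either si-BRG1 0 h library. These 3 comparisons share the si-control libraries, so they are given side by side only. The comparison of si-FOXA1 with si-CBX3 uses no si-control library, and its files share the setting of 1 thread. In it 14 members were called higher and 16 lower in si-FOXA1 (64.8% of all genes called, 34.2% higher and 30.6% lower). The median log2 difference was -0.25 against 0.05 over all genes tested. The count of 14 was lower without si-CBX3 0 h replicate 1.

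**Figure D3:**
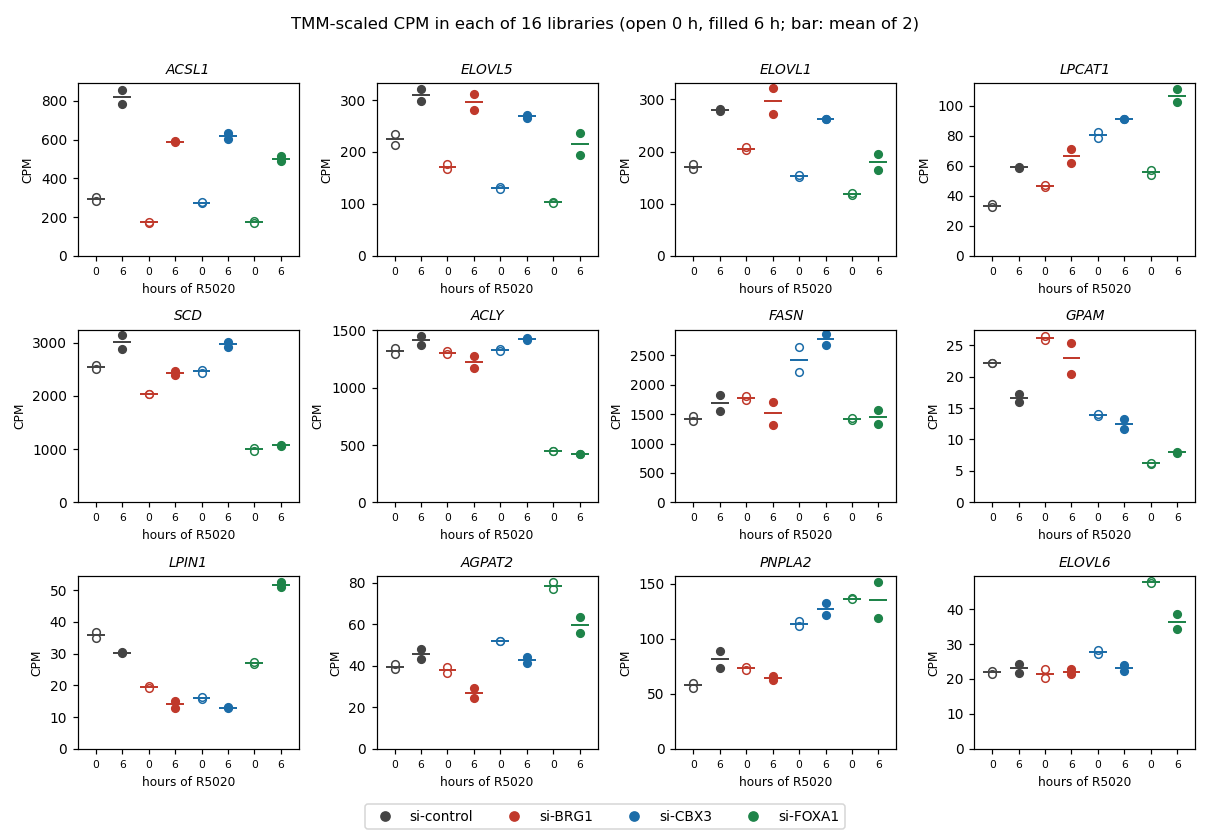
TMM-scaled CPM of 12 genes in each of the 16 libraries; open points are 0 h, filled points 6 h of R5020, bars the mean of the 2 libraries, and colours the siRNA. ACSL1 and ELOVL5 are higher at 6 h in every siRNA, ACLY and SCD are low in all 4 si-FOXA1 libraries, and LPIN1 is higher at 6 h in si-FOXA1 alone.

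Among genes of carbon supply and chain synthesis, ACLY (ENSG00000131473.12, chromosome 17, 40023161 to 40086795 on hg19) turns citrate into cytosolic acetyl-CoA. It was at 1344 and 1293 CPM at 0 h and 1455 and 1369.7 at 6 h in si-control, 1316 and 1294 at 0 h and 1276 and 1172 at 6 h in si-BRG1, 1337 and 1316 at 0 h and 1430.2 and 1416 at 6 h in si-CBX3, and 445 and 446 at 0 h and 418 and 418 at 6 h in si-FOXA1. The 4 si-FOXA1 libraries lay below the other 12, and the remaining groups lay close together. Before hormone ACLY was 2.96-fold lower in si-FOXA1 than in si-control (log2 -1.57 ± 0.06 (SE), adjusted p = 2.03e-12), and by as much against si-CBX3 (log2 -1.57). The responses of ACLY to R5020 were log2 0.10, -0.09, 0.10 and -0.09 under si-control and under si-BRG1, si-CBX3 and si-FOXA1 in turn, none called.

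FASN (ENSG00000169710.6, chromosome 17, 80036214 to 80056208), the multi-enzyme that assembles palmitate, showed another pattern. It was at 1468 and 1382 CPM at 0 h and 1825 and 1547 at 6 h in si-control, 1739 and 1809 at 0 h and 1322 and 1711 at 6 h in si-BRG1, 2639.8 and 2212 at 0 h and 2861 and 2685 at 6 h in si-CBX3, and 1403 and 1434 at 0 h and 1331 and 1577 at 6 h in si-FOXA1. The 4 si-CBX3 libraries were the highest of the 16, and replicates within a group differed by up to 1711 against 1322 CPM in si-BRG1 at 6 h. FASN was higher in si-CBX3 than in si-control before hormone (log2 0.77 ± 0.12 (SE), adjusted p = 3.19e-05), and lower in si-FOXA1 than in si-CBX3 (log2 -0.77), while si-FOXA1 and si-control differed by log2 -0.01 (adjusted p = 0.964). Its responses to R5020 of log2 0.24, -0.23, 0.19 and 0.04 were not called under any siRNA. ACSS2 (ENSG00000131069.15, chromosome 20, 33459949 to 33515769), which makes acetyl-CoA from acetate, was at 93.2 and 91.7 CPM at 0 h and 95.6 and 90.5 at 6 h in si-control, 78.3 and 75.5 at 0 h and 75.1 and 61.9 at 6 h in si-BRG1, 78.5 and 76.2 at 0 h and 86.4 and 79.04 at 6 h in si-CBX3, and 44.5 and 45.9 at 0 h and 33.8 and 35.8 at 6 h in si-FOXA1. The si-FOXA1 libraries were again the lowest, with a fall of 2.05-fold against si-control before hormone (log2 -1.03 ± 0.08 (SE), adjusted p = 8.68e-09) and a further fall with R5020 (log2 -0.38 ± 0.08 (SE), adjusted p = 0.0019). ACSS2 was also called lower in si-BRG1 (log2 -0.27) and si-CBX3 (log2 -0.26) before hormone. The si-BRG1 difference lost its call without any 1 of the 4 libraries (log2 -0.29 to -0.24). The si-CBX3 difference lost its call without si-CBX3 0 h replicate 2 (log2 -0.24).

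The 2 other tested genes of this role were scarce. ACACB ranged from 1.67 to 6.23 CPM and was called higher in si-FOXA1 than in si-control before hormone (log2 0.83). This difference was log2 0.54 without si-control 0 h replicate 2. Its responses were called lower in si-control (log2 -0.60) and si-CBX3 (log2 -0.60). The si-control response of ACACB lost its call without si-control 0 h replicate 1 (log2 -0.31), si-control 6 h replicate 1 (-0.71) or si-control 6 h replicate 2 (-0.53). That in si-CBX3 lost its call without si-CBX3 0 h replicate 2 (log2 -0.46) or si-CBX3 6 h replicate 1 (-0.39). THRSP held 0.0148 to 0.167 CPM in the 12 libraries of the other siRNAs and 0.880 to 1.46 in the 4 of si-FOXA1, with no overlap (log2 4.17 ± 0.54 (SE), adjusted p = 2.36e-06).

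Promoter sequences are shown for 5 members, chosen by BRG1 peaks, by the response to hormone or by a motif match in the sequence itself. The 5′ ends of SCD and ELOVL5 lay inside BRG1 peaks, as did those of FASN and PNPLA3, which had no entry among the promoters. ACSL1 had the largest response to hormone in si-control. PNPLA2 and ELOVL6 were the members with a match to the SREBP-type and the forkhead motif. The plan had named members with the largest called changes in the si-control response and under an siRNA before hormone. This choice departs from it in part. The sequences run from 250 bases before to 50 after the first listed RefSeq start (GRCh38.p14), 5′ to 3′ on the gene's strand. They are in lower case with motif matches in capitals. The motifs were searched on both strands: TCACNCCAC for the SREBP-type motif, the palindromic steroid receptor element, TGTTTAC for the forkhead motif, CACGTG for the E-box, and the CCAAT box. Of 35116 promoters of this length, 1.13%, 0.390%, 3.42%, 7.26% and 34.6% hold them. Among 31 matched members the counts were 1 (PNPLA2), 0, 1 (ELOVL6), 1 (ELOVL5) and 15. The SCD promoter (chr10:100346983-100347282, plus strand) holds 2 CCAAT boxes, in capitals, at -229 and -186 from the start.

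SCD: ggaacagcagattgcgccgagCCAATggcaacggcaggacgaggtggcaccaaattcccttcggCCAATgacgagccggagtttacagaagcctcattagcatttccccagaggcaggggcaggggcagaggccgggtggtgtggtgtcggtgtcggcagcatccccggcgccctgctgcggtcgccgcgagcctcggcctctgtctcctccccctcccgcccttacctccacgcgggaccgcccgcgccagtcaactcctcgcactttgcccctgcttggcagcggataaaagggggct

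SCD (ENSG00000099194.5, chromosome 10, 102106881 to 102124591 on hg19) was at 2587 and 2515 CPM at 0 h and 3138 and 2877 at 6 h in si-control, 2033 and 2033 at 0 h and 2461 and 2389 at 6 h in si-BRG1, 2496 and 2434 at 0 h and 2917 and 3023 at 6 h in si-CBX3, and 1018 and 972 at 0 h and 1079.8 and 1061 at 6 h in si-FOXA1. The si-FOXA1 libraries held 972 to 1079.8 CPM and the other 12 held 2033 to 3138, with no overlap. FOXA1 knockdown lowered SCD 2.56-fold before hormone (log2 -1.36 ± 0.06 (SE), adjusted p = 1.32e-11) and BRG1 knockdown 1.25-fold (log2 -0.33 ± 0.06 (SE), adjusted p = 0.00105). R5020 raised it slightly in si-BRG1 (log2 0.25), si-CBX3 (log2 0.27) and si-control (log2 0.24), and the si-FOXA1 response was log2 0.10, not called. The si-control response lost its call without si-control 6 h replicate 1 (log2 0.16). None of the differences between responses was called for SCD.

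FADS1, FADS2 and FADS3, of the fatty acid desaturase family, lie side by side on chromosome 11. The gene models of FADS1 and FADS2 overlap on opposite strands, and counting used the strand. FADS1 (ENSG00000149485.12, chromosome 11, 61567099 to 61596790), the delta-5 desaturase, was at 31.6 and 31.96 CPM at 0 h and 32.3 and 34.6 at 6 h in si-control, 22.3 and 22.2 at 0 h and 24.1 and 23.8 at 6 h in si-BRG1, 21.01 and 22.1 at 0 h and 21.8 and 22.5 at 6 h in si-CBX3, and 15.99 and 15.2 at 0 h and 23.3 and 22.7 at 6 h in si-FOXA1. At 0 h the si-control libraries were highest and the si-FOXA1 libraries lowest, without overlap. FADS1 was lower than in si-control before hormone in si-BRG1 (log2 -0.51), si-CBX3 (log2 -0.56) and si-FOXA1 (log2 -1.03 ± 0.07 (SE), adjusted p = 1.66e-09). R5020 raised it in si-FOXA1 (log2 0.56 ± 0.07 (SE), adjusted p = 1.1e-05), where its log2 response exceeded that of si-control by 0.49 (adjusted p = 0.00197). FADS2 (ENSG00000134824.9, chromosome 11, 61560452 to 61634826), the delta-6 desaturase, was at 29.9 and 30.4 CPM at 0 h and 34.4 and 31.3 at 6 h in si-control, 26.99 and 27.6 at 0 h and 26.6 and 23.00 at 6 h in si-BRG1, 24.1 and 25.6 at 0 h and 30.7 and 30.5 at 6 h in si-CBX3, and 16.03 and 16.6 at 0 h and 24.1 and 28.1 at 6 h in si-FOXA1. Its pattern was similar in si-FOXA1, with a lower level before hormone (log2 -0.88 ± 0.09 (SE), adjusted p = 1.75e-07), a rise with R5020 (log2 0.68) and a response above that of si-control by log2 0.55 (adjusted p = 0.00401). Called lower in si-CBX3 before hormone (log2 -0.28), it lost its call without si-CBX3 0 h replicate 1 (log2 -0.24). Its si-CBX3 response (log2 0.30) lost its call without si-CBX3 0 h replicate 1 (log2 0.26) or si-CBX3 6 h replicate 2 (0.30). FADS3 (ENSG00000221968.4, chromosome 11, 61640991 to 61659523) was at 9.204 and 8.97 CPM at 0 h and 10.8 and 11.5 at 6 h in si-control, 6.85 and 6.48 at 0 h and 6.46 and 5.49 at 6 h in si-BRG1, 6.11 and 6.17 at 0 h and 5.92 and 5.57 at 6 h in si-CBX3, and 8.22 and 6.98 at 0 h and 13.7 and 16.8 at 6 h in si-FOXA1. Before hormone it was lower in si-CBX3 (log2 -0.57 ± 0.12 (SE), adjusted p = 0.000639) and si-BRG1 (log2 -0.45). The si-BRG1 difference lost its call without si-BRG1 0 h replicate 2 (log2 -0.41). FADS3 rose with R5020 in si-FOXA1 (log2 1.00 ± 0.11 (SE), adjusted p = 2.26e-06), by log2 0.71 more than in si-control (adjusted p = 0.00351). Between si-FOXA1 and si-CBX3 before hormone, FADS3 (log2 0.31) lost its call without si-CBX3 0 h replicate 1 (log2 0.30), si-CBX3 0 h replicate 2 (0.31) or si-FOXA1 0 h replicate 1 (0.18). SCD5, a second stearoyl-CoA desaturase, held 4.02 to 4.57 CPM in the si-FOXA1 libraries and 0.729 to 1.64 in the rest (log2 1.61 against si-control at 0 h).

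Among the elongation genes, ELOVL5 lengthens polyunsaturated fatty acids. Its promoter (chr6:53348901-53349200, minus strand) holds an E-box and 2 CCAAT boxes, read on the other strand as ATTGG.

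ELOVL5: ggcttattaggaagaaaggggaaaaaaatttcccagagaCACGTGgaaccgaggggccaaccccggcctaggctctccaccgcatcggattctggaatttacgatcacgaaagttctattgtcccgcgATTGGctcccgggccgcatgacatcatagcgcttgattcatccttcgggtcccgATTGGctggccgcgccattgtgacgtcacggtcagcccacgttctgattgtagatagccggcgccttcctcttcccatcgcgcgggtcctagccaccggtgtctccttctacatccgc

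ELOVL5 (ENSG00000012660.9, chromosome 6, 53132196 to 53213947 on hg19) was at 213 and 236 CPM at 0 h and 322 and 299 at 6 h in si-control, 167 and 177 at 0 h and 281 and 312 at 6 h in si-BRG1, 132 and 129 at 0 h and 266 and 271 at 6 h in si-CBX3, and 104 and 102 at 0 h and 237 and 194 at 6 h in si-FOXA1. In each siRNA both 6 h libraries lay above both 0 h libraries. The rise with R5020 was 1.38-fold in si-control (log2 0.47 ± 0.09 (SE), adjusted p = 0.000362), 1.73-fold in si-BRG1, 2.05-fold in si-CBX3 and 2.1-fold in si-FOXA1 (log2 1.07 ± 0.09 (SE), adjusted p = 4.21e-08). Before hormone its level was lower than in si-control in all 3 knockdowns, by log2 -0.38 in si-BRG1, -0.78 in si-CBX3 and -1.13 in si-FOXA1. The response exceeded that of si-control in si-CBX3 (difference log2 0.57, adjusted p = 0.00697) and si-FOXA1 (difference log2 0.60, adjusted p = 0.00149), and the difference in si-BRG1 was log2 0.32 (adjusted p = 0.14). These comparisons share the si-control libraries.

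ELOVL1 (ENSG00000066322.8, chromosome 1, 43829068 to 43833696), an elongase of saturated very long chains, was at 166 and 176 CPM at 0 h and 278 and 282 at 6 h in si-control, 202 and 209 at 0 h and 321 and 271 at 6 h in si-BRG1, 151 and 154 at 0 h and 262 and 262 at 6 h in si-CBX3, and 117 and 121 at 0 h and 164 and 195 at 6 h in si-FOXA1. R5020 raised it under all 4 siRNAs, 1.64-fold in si-control (log2 0.71 ± 0.08 (SE), adjusted p = 3.89e-06) and by log2 0.53, 0.78 and 0.59 in si-BRG1, si-CBX3 and si-FOXA1. None of its responses was called different from si-control, with differences of log2 -0.19, 0.07 and -0.12 (SE 0.12, 0.12 and 0.12). Its level before hormone was lower in si-FOXA1 (log2 -0.52). Called higher in si-BRG1 (log2 0.26), ELOVL1 lost its call without any 1 of the 4 libraries (log2 0.20 to 0.30). ELOVL7 (ENSG00000164181.9, chromosome 5, 60047618 to 60140216), also an elongase of saturated chains, was at 38.6 and 47.3 CPM at 0 h and 62.5 and 58.8 at 6 h in si-control, 41.1 and 44.5 at 0 h and 58.3 and 65.2 at 6 h in si-BRG1, 45.7 and 49.2 at 0 h and 79.2 and 84.03 at 6 h in si-CBX3, and 25.4 and 24.04 at 0 h and 52.9 and 45.1 at 6 h in si-FOXA1. It rose under all 4 siRNAs, from log2 0.50 in si-control to 0.99 in si-FOXA1, and was lower in si-FOXA1 than in si-control before hormone (log2 -0.79 ± 0.10 (SE), adjusted p = 2.3e-06). The larger response of ELOVL7 in si-FOXA1 (difference log2 0.49) lost its call without si-FOXA1 0 h replicate 2, si-FOXA1 6 h replicate 1, si-control 0 h replicate 2 or si-control 6 h replicate 2 (log2 0.34 to 0.46).

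ELOVL6, which lengthens palmitate to stearate, was the 1 elongase with a higher level in si-FOXA1 before hormone. Its promoter (chr4:110198566-110198865, minus strand) holds the forkhead motif, on the other strand as GTAAACA, at -143 from the start. A match is a description of these letters and no evidence of a bound site.

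ELOVL6: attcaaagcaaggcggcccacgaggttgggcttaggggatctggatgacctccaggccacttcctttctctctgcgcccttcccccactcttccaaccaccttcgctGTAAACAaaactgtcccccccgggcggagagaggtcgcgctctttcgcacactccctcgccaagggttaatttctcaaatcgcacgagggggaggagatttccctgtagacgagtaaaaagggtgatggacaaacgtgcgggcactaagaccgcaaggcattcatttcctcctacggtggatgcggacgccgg

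ELOVL6 (ENSG00000170522.5, chromosome 4, 110967002 to 111120355 on hg19) was at 22.3 and 21.4 CPM at 0 h and 24.3 and 21.8 at 6 h in si-control, 20.2 and 22.8 at 0 h and 21.3 and 22.96 at 6 h in si-BRG1, 27.1 and 28.3 at 0 h and 22.3 and 24.1 at 6 h in si-CBX3, and 48.01 and 47.4 at 0 h and 38.6 and 34.2 at 6 h in si-FOXA1. The si-FOXA1 libraries were highest at both times. It was 2.18-fold higher in si-FOXA1 than in si-control before hormone (log2 1.13 ± 0.09 (SE), adjusted p = 6.25e-09) and higher in si-CBX3 (log2 0.34). R5020 lowered it in si-FOXA1 (log2 -0.39 ± 0.09 (SE), adjusted p = 0.00185), and its response there was below that of si-control by log2 -0.47. This difference of responses lost its call without si-control 6 h replicate 1 (log2 -0.37). The fall of ELOVL6 in si-CBX3 (log2 -0.26) lost its call without si-CBX3 0 h replicate 1 (log2 -0.29), si-CBX3 0 h replicate 2 (-0.23) or si-CBX3 6 h replicate 1 (-0.18). HACD3 (ENSG00000074696.8, chromosome 15, 65822756 to 65870687), the dehydratase of the elongation cycle, was at 345 and 372 CPM at 0 h and 459 and 431 at 6 h in si-control, 281 and 287 at 0 h and 399.8 and 405 at 6 h in si-BRG1, 375 and 381 at 0 h and 429.8 and 452 at 6 h in si-CBX3, and 249 and 244 at 0 h and 230.2 and 228 at 6 h in si-FOXA1. It rose with R5020 in si-control (log2 0.31 ± 0.06 (SE), adjusted p = 0.000744) and si-BRG1 (log2 0.50), and its response in si-FOXA1 (log2 -0.11) was lower than in si-control by log2 -0.42 (adjusted p = 0.00203). The si-CBX3 response of HACD3 (log2 0.22) lost its call without si-CBX3 0 h replicate 1 (log2 0.21) or si-CBX3 6 h replicate 2 (0.19). Before hormone HACD3 was lower in si-FOXA1 (log2 -0.54) and si-BRG1 (log2 -0.34). TECR, the reductase that closes the elongation cycle, ranged from 37.3 to 62.7 CPM and fell with R5020 in si-FOXA1 (log2 -0.36 ± 0.08 (SE), adjusted p = 0.00191). ELOVL2, an elongase of polyunsaturated chains, stayed at or below 1.73 CPM in all libraries and was lowest in si-CBX3 (0.251 to 0.326; log2 -2.07 against si-control before hormone).

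Of the acyl-CoA synthetases, ACSL1 joins long-chain fatty acids to coenzyme A and showed the largest response to R5020 of the tested members in si-control. Its promoter (chr4:184825919-184826218, minus strand; GC content 82.3%) holds none of the motifs searched, which says only that these letters are not in this window.

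ACSL1: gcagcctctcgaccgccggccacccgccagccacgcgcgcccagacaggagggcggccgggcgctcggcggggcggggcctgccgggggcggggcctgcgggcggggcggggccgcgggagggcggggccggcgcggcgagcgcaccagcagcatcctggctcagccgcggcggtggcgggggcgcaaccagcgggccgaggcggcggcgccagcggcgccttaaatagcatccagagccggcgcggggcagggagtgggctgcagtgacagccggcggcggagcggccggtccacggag

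ACSL1 (ENSG00000151726.9, chromosome 4, 185676749 to 185747972 on hg19) was at 302 and 284 CPM at 0 h and 857 and 784 at 6 h in si-control, 171 and 174 at 0 h and 590.0 and 587 at 6 h in si-BRG1, 270.5 and 276 at 0 h and 602 and 636 at 6 h in si-CBX3, and 178 and 171 at 0 h and 514 and 489 at 6 h in si-FOXA1. In every siRNA both 6 h libraries lay above both 0 h libraries. The rise was 2.8-fold in si-control (log2 1.49 ± 0.07 (SE), adjusted p = 1.62e-11), 3.41-fold in si-BRG1 (log2 1.77 ± 0.07 (SE), adjusted p = 1.81e-12), 2.26-fold in si-CBX3 and 2.87-fold in si-FOXA1. Before hormone ACSL1 was lower in si-BRG1 (log2 -0.76 ± 0.07 (SE), adjusted p = 6.62e-07) and si-FOXA1 (log2 -0.75 ± 0.07 (SE), adjusted p = 2.44e-08) than in si-control, and the difference in si-CBX3 was log2 -0.10, not called. Its response in si-FOXA1 and in si-BRG1 differed from that in si-control by log2 0.04 (SE 0.09) and 0.28 (SE 0.09), neither called, and its 6 h levels in these knockdowns lay below those of si-control. The smaller response in si-CBX3 (difference log2 -0.31) lost its call without any 1 of the 8 libraries (log2 -0.35 to -0.20).

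ACSL3, the synthetase of lipid droplets and the endoplasmic reticulum, rose with R5020 by log2 0.51, 0.51, 0.55 and 0.42 under si-control and under si-BRG1, si-CBX3 and si-FOXA1 in turn, from 216 and 213 to 318 and 295 CPM in si-control. It was lower in si-FOXA1 before hormone (log2 -0.52 ± 0.08 (SE), adjusted p = 1.84e-05). ACSL4 (ENSG00000068366.15, chromosome X, 108867473 to 108976632), which prefers arachidonate, was at 3.701 and 5.501 CPM at 0 h and 5.93 and 5.31 at 6 h in si-control, 4.91 and 5.46 at 0 h and 6.76 and 6.67 at 6 h in si-BRG1, 8.56 and 8.26 at 0 h and 11.8 and 10.4 at 6 h in si-CBX3, and 16.2 and 15.3 at 0 h and 20.04 and 17.6 at 6 h in si-FOXA1. The si-FOXA1 libraries were highest and those of si-CBX3 next, with no overlap with the other 8 libraries. Before hormone ACSL4 was 3.43-fold higher in si-FOXA1 than in si-control (log2 1.78 ± 0.14 (SE), adjusted p = 6.18e-09) and higher in si-CBX3 (log2 0.87). The si-CBX3 difference was log2 0.56 without si-control 0 h replicate 1. The rise of ACSL4 with R5020 in si-CBX3 (log2 0.40) lost its call without si-CBX3 0 h replicate 1 (log2 0.43), si-CBX3 0 h replicate 2 (0.37) or si-CBX3 6 h replicate 1 (0.33).

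In glycerolipid assembly, GPAM and LPIN1 were lower under FOXA1 knockdown before hormone, whereas LPIN3 and AGPAT2 were higher. GPAM (ENSG00000119927.9, chromosome 10, 113909624 to 113975135), the mitochondrial enzyme that adds the first acyl chain to glycerol 3-phosphate, was at 22.2 and 22.1 CPM at 0 h and 17.2 and 15.9 at 6 h in si-control, 25.8 and 26.5 at 0 h and 20.5 and 25.4 at 6 h in si-BRG1, 13.8 and 14.1 at 0 h and 11.7 and 13.3 at 6 h in si-CBX3, and 6.15 and 6.27 at 0 h and 8.09 and 7.88 at 6 h in si-FOXA1. The si-FOXA1 libraries were lowest and those of si-CBX3 next, without overlap with si-control or si-BRG1. Before hormone it was 3.57-fold lower in si-FOXA1 (log2 -1.84 ± 0.10 (SE), adjusted p = 9.71e-11) and lower in si-CBX3 (log2 -0.67). R5020 lowered GPAM in si-control (log2 -0.42 ± 0.10 (SE), adjusted p = 0.00246), and its response in si-FOXA1 was higher than in si-control by log2 0.78 (adjusted p = 0.000715). The rise of GPAM within si-FOXA1 (log2 0.36) lost its call without si-FOXA1 0 h replicate 1 (log2 0.34), si-FOXA1 0 h replicate 2 (0.37) or si-FOXA1 6 h replicate 1 (0.34).

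LPIN1 (ENSG00000134324.7, chromosome 2, 11817721 to 11967535), the phosphatidate phosphatase that makes diacylglycerol, responded in opposite directions in si-FOXA1 and in the other siRNAs. It was at 36.99 and 35.00 CPM at 0 h and 30.6 and 30.1 at 6 h in si-control, 19.9 and 19.1 at 0 h and 12.9 and 15.1 at 6 h in si-BRG1, 15.7 and 16.5 at 0 h and 13.1 and 12.8 at 6 h in si-CBX3, and 26.6 and 27.5 at 0 h and 51.2 and 52.4 at 6 h in si-FOXA1. In si-FOXA1 both 6 h libraries lay above both 0 h libraries, and in the other 3 siRNAs both lay below. R5020 raised LPIN1 1.92-fold in si-FOXA1 (log2 0.94 ± 0.08 (SE), adjusted p = 6.64e-08) and lowered it in si-BRG1 (log2 -0.48 ± 0.08 (SE), adjusted p = 0.000199). The responses of log2 -0.25 in si-control and -0.31 in si-CBX3 were smaller falls. The si-control response lost its call without si-control 0 h replicate 1 (log2 -0.23), si-control 6 h replicate 1 (-0.27) or si-control 6 h replicate 2 (-0.24). That of si-CBX3 lost its call without si-CBX3 0 h replicate 2 (log2 -0.28), si-CBX3 6 h replicate 1 (-0.31) or si-CBX3 6 h replicate 2 (-0.29). The difference of responses between si-FOXA1 and si-control was log2 1.18 ± 0.11 (SE), adjusted p = 9.95e-07. Before hormone LPIN1 was lower than in si-control in all 3 knockdowns, by log2 -0.89 in si-BRG1, -1.16 in si-CBX3 and -0.41 in si-FOXA1. LPIN3 (ENSG00000132793.7, chromosome 20, 39969560 to 39989222), a related phosphatase, was at 13.05 and 12.1 CPM at 0 h and 16.9 and 16.6 at 6 h in si-control, 12.9 and 12.6 at 0 h and 13.4 and 15.4 at 6 h in si-BRG1, 14.4 and 14.5 at 0 h and 15.9 and 15.9 at 6 h in si-CBX3, and 39.7 and 41.2 at 0 h and 48.2 and 55.1 at 6 h in si-FOXA1. The si-FOXA1 libraries were 3.22-fold above si-control before hormone (log2 1.69 ± 0.09 (SE), adjusted p = 4.36e-11), and R5020 raised LPIN3 in si-control (log2 0.41) and si-FOXA1 (log2 0.35).

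AGPAT2 (ENSG00000169692.8, chromosome 9, 139567595 to 139581875) adds the second acyl chain to make phosphatidate. It was at 38.6 and 40.7 CPM at 0 h and 43.1 and 47.9 at 6 h in si-control, 39.3 and 36.4 at 0 h and 29.2 and 24.5 at 6 h in si-BRG1, 51.9 and 52.04 at 0 h and 44.1 and 41.3 at 6 h in si-CBX3, and 76.9 and 80.3 at 0 h and 55.7 and 63.7 at 6 h in si-FOXA1. The 6 h libraries lay above the 0 h libraries in si-control and below them in the 3 knockdowns. R5020 lowered AGPAT2 in si-BRG1 (log2 -0.50 ± 0.09 (SE), adjusted p = 0.000372) and si-FOXA1 (log2 -0.40 ± 0.09 (SE), adjusted p = 0.00211), while the si-control response was log2 0.20 (adjusted p = 0.101). Its response was called below that of si-control in all 3 knockdowns, by log2 -0.70 in si-BRG1, -0.48 in si-CBX3 and -0.60 in si-FOXA1; all 3 share the si-control libraries. The si-BRG1 difference of responses lost its call without si-BRG1 0 h replicate 1 (log2 -0.64) or si-control 6 h replicate 2 (-0.59). The si-CBX3 difference lost its call without si-CBX3 0 h replicate 1, si-CBX3 0 h replicate 2, si-CBX3 6 h replicate 1, si-CBX3 6 h replicate 2, si-control 0 h replicate 1, si-control 0 h replicate 2 or si-control 6 h replicate 2 (log2 -0.49 to -0.37). The fall within si-CBX3 (log2 -0.28) lost its call without any 1 of the 4 libraries (log2 -0.30 to -0.24). Before hormone AGPAT2 was higher in si-FOXA1 (log2 0.99 ± 0.09 (SE), adjusted p = 4.41e-08) and si-CBX3 (log2 0.39). AGPAT1 and AGPAT3, which catalyse the same step, ranged from 68.9 to 111 and from 92.1 to 137 CPM, and their log2 differences stayed within 0.5 in all 11 comparisons. DGAT1, which makes triglyceride from diacylglycerol, ranged from 25.5 to 52.0 CPM, with log2 differences from -0.51 to 0.24 over the 11 comparisons. DGAT2, which catalyses the same reaction, ranged from 3.08 to 12.7 CPM, rose with R5020 in si-CBX3 (log2 1.10 ± 0.13 (SE), adjusted p = 1.97e-06), and was higher in si-FOXA1 (log2 0.75) and lower in si-CBX3 (log2 -0.70) than in si-control before hormone.

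Both lipases were higher in si-FOXA1 and si-CBX3 than in si-control before hormone. PNPLA2, adipose triglyceride lipase, starts the breakdown of stored triglyceride. Its promoter (chr11:818664-818963, plus strand) holds the SREBP-type motif, on the other strand as GTGGGGTGA, at -153 from the start.

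PNPLA2: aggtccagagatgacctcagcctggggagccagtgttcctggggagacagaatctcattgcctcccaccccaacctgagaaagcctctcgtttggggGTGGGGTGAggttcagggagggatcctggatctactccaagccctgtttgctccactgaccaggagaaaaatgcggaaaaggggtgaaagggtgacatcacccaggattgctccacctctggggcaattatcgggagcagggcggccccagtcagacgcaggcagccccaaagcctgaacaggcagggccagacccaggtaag

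PNPLA2 (ENSG00000177666.11, chromosome 11, 818902 to 825573 on hg19) was at 60.1 and 55.4 CPM at 0 h and 73.97 and 88.9 at 6 h in si-control, 74.5 and 71.9 at 0 h and 62.4 and 65.99 at 6 h in si-BRG1, 116 and 111 at 0 h and 132 and 122 at 6 h in si-CBX3, and 137 and 136 at 0 h and 119 and 152 at 6 h in si-FOXA1. At 0 h si-control was lowest, si-BRG1 next, then si-CBX3 and si-FOXA1, with no overlap between neighbours. Before hormone it was 2.37-fold higher in si-FOXA1 (log2 1.24 ± 0.10 (SE), adjusted p = 1.32e-08) and 1.97-fold in si-CBX3 (log2 0.98 ± 0.10 (SE), adjusted p = 6.45e-07) than in si-control. Called higher in si-BRG1 too (log2 0.34), PNPLA2 lost its call without si-BRG1 0 h replicate 1 (log2 0.32), si-BRG1 0 h replicate 2 (0.37) or si-control 0 h replicate 2 (0.28). Between si-FOXA1 and si-CBX3 the difference (log2 0.27) lost its call without any 1 of the 4 libraries (log2 0.23 to 0.29). R5020 raised PNPLA2 in si-control (log2 0.50 ± 0.10 (SE), adjusted p = 0.00109), and the responses in si-BRG1, si-CBX3 and si-FOXA1 were log2 -0.19, 0.16 and -0.01, none called. The response was called smaller than in si-control in si-BRG1 (log2 -0.68) and si-FOXA1 (log2 -0.51). The si-BRG1 difference of responses lost its call without si-BRG1 0 h replicate 1 (log2 -0.66), si-control 0 h replicate 2 (-0.61) or si-control 6 h replicate 2 (-0.52). The si-FOXA1 difference lost its call without si-FOXA1 6 h replicate 1 (log2 -0.35), si-control 0 h replicate 2 (-0.44) or si-control 6 h replicate 2 (-0.35). PNPLA3 (ENSG00000100344.6, chromosome 22, 44319619 to 44360368), a lipase and acyl hydrolase of lipid droplets, was at 5.21 and 4.56 CPM at 0 h and 6.18 and 5.57 at 6 h in si-control, 3.91 and 4.61 at 0 h and 3.34 and 4.67 at 6 h in si-BRG1, 7.63 and 7.61 at 0 h and 5.98 and 6.26 at 6 h in si-CBX3, and 16.4 and 15.4 at 0 h and 20.7 and 22.3 at 6 h in si-FOXA1. It was 3.25-fold higher in si-FOXA1 (log2 1.70 ± 0.13 (SE), adjusted p = 3.94e-09) and higher in si-CBX3 (log2 0.64) than in si-control before hormone. The rise of PNPLA3 with R5020 in si-FOXA1 (log2 0.44) lost its call without si-FOXA1 0 h replicate 2 (log2 0.38) or si-FOXA1 6 h replicate 2 (0.38).

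Of the enzymes of phospholipid acyl exchange, LPCAT1 (ENSG00000153395.5, chromosome 5, 1456595 to 1524092), which puts saturated chains back onto lysophosphatidylcholine, was at 34.3 and 32.5 CPM at 0 h and 59.5 and 58.5 at 6 h in si-control, 46.02 and 46.97 at 0 h and 62.2 and 71.2 at 6 h in si-BRG1, 82.3 and 78.7 at 0 h and 91.4 and 91.5 at 6 h in si-CBX3, and 54.2 and 57.3 at 0 h and 111 and 102 at 6 h in si-FOXA1. At 0 h si-control was the lowest group and si-CBX3 the highest, without overlap. R5020 raised LPCAT1 in si-control (log2 0.82 ± 0.08 (SE), adjusted p = 1.7e-07), si-BRG1 (log2 0.52) and si-FOXA1 (log2 0.94 ± 0.07 (SE), adjusted p = 3.06e-08). In si-CBX3 the response was log2 0.18, below that of si-control by log2 -0.64 (adjusted p = 0.000987). Before hormone LPCAT1 was higher than in si-control in si-BRG1 (log2 0.48), si-CBX3 (log2 1.27 ± 0.08 (SE), adjusted p = 1.05e-09) and si-FOXA1 (log2 0.74). LPCAT3, which inserts polyunsaturated chains, ranged from 20.3 to 42.1 CPM, rose with R5020 in si-CBX3 (log2 0.36) and was lower in si-FOXA1 before hormone (log2 -0.46).

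Whether a knockdown changed the response to R5020 was tested as a difference of responses. FOXA1 knockdown changed it for 16 of 32 members, 9 upward and 7 downward, beside 28.7% of all genes (13.0% upward and 15.7% downward). Upward were the desaturases FADS1, FADS2 and FADS3, the elongases ELOVL2, ELOVL5 and ELOVL7, GPAM, LPIN1 and ACACB. Downward were ELOVL6, HACD3, TECR, ACSS2, AGPAT2, DGAT1 and PNPLA2. The 7 downward calls became 3 without si-FOXA1 6 h replicate 1 or si-control 6 h replicate 1, and 4 without si-control 0 h replicate 1. The difference of ACACB (log2 0.97) lost its call without si-FOXA1 0 h replicate 2 (log2 0.81), si-control 0 h replicate 1 (0.68) or si-control 6 h replicate 2 (0.90). That of ELOVL2 (log2 1.38) lost its call without si-FOXA1 0 h replicate 2 (log2 1.17) or si-FOXA1 6 h replicate 1 (1.32), and was 2.09 without si-control 6 h replicate 2. That of TECR (log2 -0.42) lost its call without si-FOXA1 6 h replicate 1 (log2 -0.33), si-control 0 h replicate 1 (-0.34) or si-control 6 h replicate 1 (-0.36). That of DGAT1 (log2 -0.51) lost its call without si-FOXA1 0 h replicate 1, si-FOXA1 0 h replicate 2, si-FOXA1 6 h replicate 1, si-control 0 h replicate 1 or si-control 6 h replicate 1 (log2 -0.52 to -0.31). That of ACSS2 (log2 -0.39) lost its call without si-FOXA1 0 h replicate 2, si-FOXA1 6 h replicate 1, si-control 0 h replicate 1, si-control 0 h replicate 2 or si-control 6 h replicate 1 (log2 -0.37 to -0.33). The single-library limits of ELOVL6, ELOVL7 and PNPLA2 stand with their values above. CBX3 knockdown changed the response of 5 members (ELOVL5 and DGAT2 upward, ACSL1, AGPAT2 and LPCAT1 downward; background 8.99%, 4.63% upward and 4.36% downward), of which ELOVL5 and LPCAT1 kept the call without any 1 library. The difference of DGAT2 (log2 0.72) lost its call without si-CBX3 0 h replicate 2, si-CBX3 6 h replicate 2, si-control 0 h replicate 2 or si-control 6 h replicate 2 (log2 0.62 to 0.73). The upward count was 1 without si-CBX3 0 h, si-CBX3 6 h, si-control 0 h or si-control 6 h replicate 2, and the downward count was 1 without any 1 of the 8 libraries other than si-control 6 h replicate 1. BRG1 knockdown changed the response of 2 members, AGPAT2 and PNPLA2, both downward (background 5.22%, 1.49% upward and 3.72% downward); the downward count ran from 0 without si-BRG1 0 h replicate 1 or si-control 6 h replicate 2 to 6 without si-BRG1 6 h replicate 1, was 1 without si-control 0 h replicate 2 and 4 without si-BRG1 6 h replicate 2, and the upward count was 2 without si-BRG1 6 h replicate 1.

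**Figure D4:**
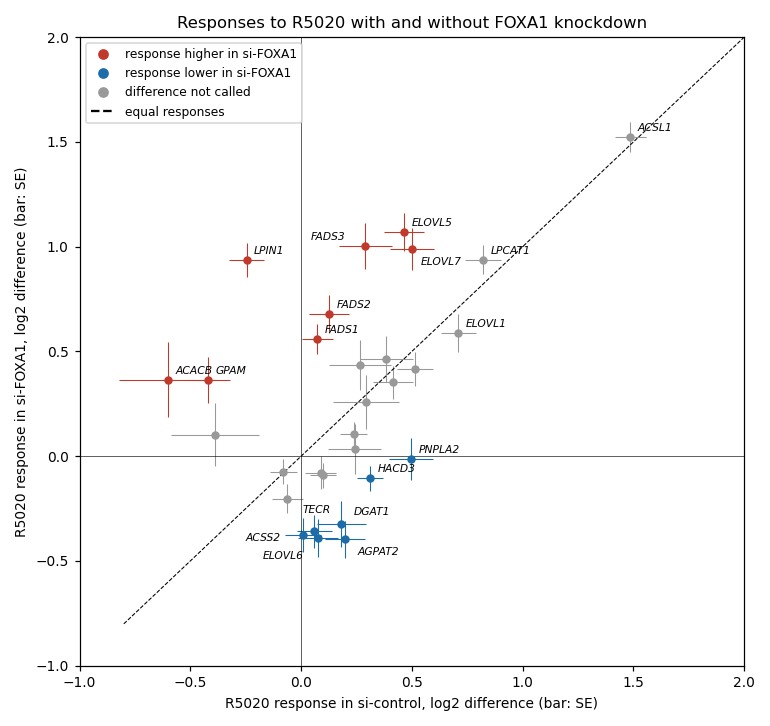
Response to R5020 in si-FOXA1 (vertical) against si-control (horizontal) as log2 differences with SE bars; the dashed line marks equal responses, and THRSP and ELOVL2, both scarce, are not drawn. Red genes, such as LPIN1 and FADS3, lie above the line and blue genes, such as AGPAT2 and HACD3, below it; ACSL1 lies near the line.

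Cells without siRNA gave 1 library per time, so their ratios have no replicate check. Of the 34 members found in these files (ACSL4 was not found in them), 9 were at least 1.5-fold higher at 6 h and 1 lower on the log2(RPKM + 1) scale. All of these were among the 26 members at 1 RPKM or more, the set to hold beside the shares that follow. Among genes at 1 RPKM or more, 20.3% were higher and 7.97% lower by that measure, and the 26 members at that level had a median log2 ratio of 0.39 against 0.14 over all such genes. ACSL1 stood at 18.9 RPKM at 0 h and 63.9 at 6 h, ELOVL1 at 41.3 RPKM at 0 h and 108 at 6 h and ELOVL5 at 16.8 RPKM at 0 h and 36.1 at 6 h, the same direction as in si-control. FASN stood at 89.1 RPKM at 0 h and 169 at 6 h and FADS1 at 5.71 RPKM at 0 h and 19.04 at 6 h, where the si-control responses were log2 0.24 and 0.07, not called. PNPLA2 stood at 31.9 RPKM at 0 h and 14.03 at 6 h, the opposite direction to its called rise in si-control, and LPIN1 at 1.26 RPKM at 0 h and 2.84 at 6 h and ACACB at 1.14 RPKM at 0 h and 2.08 at 6 h, the opposite direction to their calls there. DGAT2, called higher in si-control, stood under 1 RPKM here, at 0.576 RPKM at 0 h and 0.504 at 6 h. LPIN2 and ME1 were listed at 0 at both times. SCD was at 137 RPKM at 0 h and 187 at 6 h. These values were normalized apart from the siRNA counts, so only directions are set side by side.

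**Figure D5:**
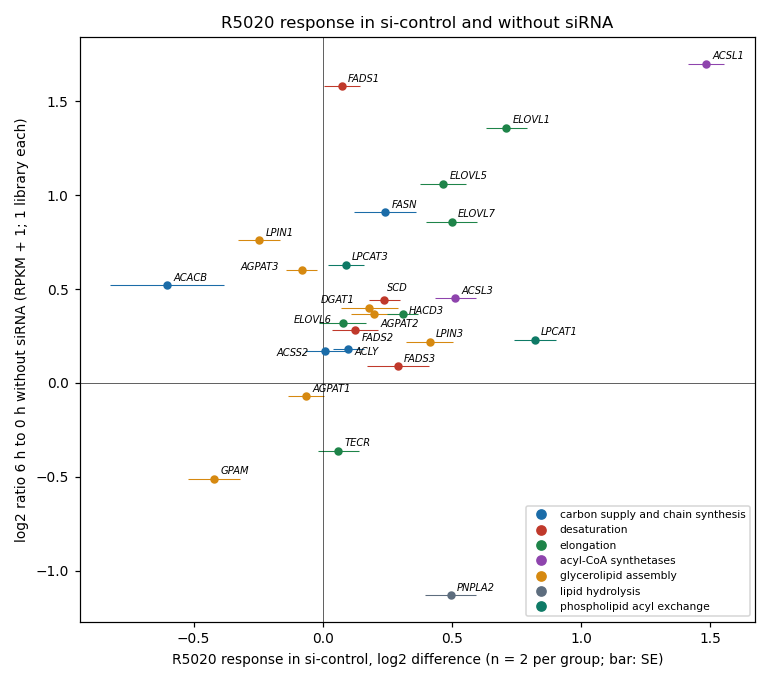
log2 ratio of 6 h to 0 h without siRNA (RPKM + 1, 1 library per time, vertical) against the response in si-control (n = 2 per group, bars SE, horizontal) for the 26 members at 1 RPKM or more. ACSL1, ELOVL1 and ELOVL5 are high on both axes, FADS1 and FASN are high mainly without siRNA, and PNPLA2 is alone at the lower right.

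BRG1 binding was compared with the genes as a description, since each time has 1 list; the score is the authors' value per peak. At 0 min a peak lay within 5 kb of the 5′ end of 2 members, beside 1.89% of all genes tested: SCD (chr10:102106054-102107965, hg19, score 66.6) and ACSL3 (chr2:223725692-223726593, score 60.1). At 30 min of R5020, 5 members had one, beside 10.3% of genes: SCD (chr10:102105128-102107952, score 139), ELOVL5 (chr6:53212129-53213995, score 110.3), FASN (chr17:80054115-80059032, score 85.6), PNPLA3 (chr22:44319510-44320521, score 58.8) and HACD3 (chr15:65826502-65827378, score 50.6). The peaks of SCD, ELOVL5, FASN and PNPLA3 covered the 5′ end itself. That of HACD3 lay 3746 bases away and stood at percentile 2.75 of the scores in its list. Of these 5, SCD alone also had a peak within 5 kb at 0 min, the time that matches a knockdown before hormone. Under BRG1 knockdown before hormone SCD and ELOVL5 were lower (log2 -0.33 and -0.38), as was HACD3 (log2 -0.34), while FASN and PNPLA3 differed by log2 0.32 and -0.20, not called. ACSL3, with a peak at 0 min, was at 210 and 207 CPM in si-BRG1 against 216 and 213 in si-control, not called. None of the 5 members with a 30 min peak had a called difference of responses in si-BRG1. ACSL1, with the largest rise in si-control, had its nearest 30 min peak 12858 bases from the 5′ end.

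The transcriptional regulators of the pathway were read beside the enzymes. SREBF1, which encodes SREBP-1, was at 267 and 240.3 CPM at 0 h and 278 and 268 at 6 h in si-control, 289.9 and 303 at 0 h and 219 and 256 at 6 h in si-BRG1, 371 and 365 at 0 h and 413 and 388 at 6 h in si-CBX3, and 358 and 358 at 0 h and 265 and 321 at 6 h in si-FOXA1. It was higher in si-FOXA1 (log2 0.50 ± 0.09 (SE), adjusted p = 9.88e-05) and si-CBX3 (log2 0.54) than in si-control before hormone. SREBF2, for SREBP-2, rose with R5020 in si-control (log2 0.27 ± 0.07 (SE), adjusted p = 0.00466) and si-CBX3 (log2 0.31). The si-control rise lost its call without si-control 6 h replicate 1 (log2 0.23). SREBF2 was lower in si-FOXA1 before hormone (log2 -0.24). With R5020, SREBF1 was called lower in si-BRG1 (log2 -0.32), a call lost without si-BRG1 0 h replicate 2 (log2 -0.29) or 6 h replicate 1 (-0.21). It was also called lower in si-FOXA1 (log2 -0.29), a call lost without si-FOXA1 0 h replicate 1 (log2 -0.29), 0 h replicate 2 (-0.29) or 6 h replicate 1 (-0.16). The responses of SREBF1 and SREBF2 were called lower in si-FOXA1 than in si-control (difference log2 -0.39 and -0.31). The SREBF1 difference lost its call without any 1 of the 8 libraries other than si-control 0 h replicate 1 or si-FOXA1 6 h replicate 2 (log2 -0.40 to -0.27). The SREBF2 difference lost it without any 1 other than si-FOXA1 6 h replicate 2 (log2 -0.33 to -0.22). INSIG1, which holds SREBP in the endoplasmic reticulum and is itself an SREBP target, was 2.01-fold lower in si-FOXA1 before hormone (log2 -1.01 ± 0.07 (SE), adjusted p = 2.22e-09). Of 20 tested regulators, 7 were called higher and 6 lower with R5020 in si-control (all genes 19.5% and 18.1%), and 11 higher and 7 lower in si-FOXA1 before hormone (all genes 40.0% and 33.5%). Among them MID1IP1, a partner of acetyl-CoA carboxylase and THRSP, rose with R5020 in si-control (log2 1.12) and fell with it in si-FOXA1 (-0.54), and MLXIPL, the carbohydrate response factor, was higher in si-FOXA1 before hormone (log2 2.11).

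Neighbouring steps of lipid metabolism moved as follows. With R5020 in si-control, 5 of 18 genes of fatty acid uptake and lipid droplets were called higher and 5 lower. For this and the next 4 lists the shares of all genes are 19.5% higher and 18.1% lower. HILPDA, an inhibitor of PNPLA2 on droplets, rose by log2 2.02, 2.13, 1.26 and 1.67 under si-control and under si-BRG1, si-CBX3 and si-FOXA1 in turn, PLIN2, the droplet coat protein, by 1.04, 1.15, 1.13 and 1.17, and VLDLR, a lipoprotein receptor, by 1.03, 1.26, 1.02 and 1.00. Of 19 phospholipid head group enzymes, 10 were higher and 3 lower in si-control, led by PISD (phosphatidylserine decarboxylase, log2 1.84), CHKA (choline kinase, 1.19) and CHPT1 (choline phosphotransferase, 1.04). Of 12 genes of acetyl-CoA and NADPH supply, 5 were higher and 0 lower, and of 19 genes of mitochondrial fatty acid oxidation 3 and 4. Of 19 further elongation, activation and acyltransfer enzymes 3 were higher and 8 lower, among them MBOAT1, a lysophospholipid acyltransferase, which fell by 1.28 on the log2 scale. In si-FOXA1 before hormone, 10 of 12 supply genes were called lower and 2 higher, and 13 of 19 oxidation genes lower and 3 higher, beside 33.5% of all genes lower and 40.0% higher. ACSS1, the mitochondrial acetyl-CoA synthetase (log2 -1.07), PGD of the pentose phosphate pathway (-0.81), CPT2, which imports fatty acids into mitochondria (-1.42), and ETFA, which passes on their electrons (-1.72), were among those lower, as were HILPDA (-1.99) and PLIN2 (-1.22).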

How the data were processed

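RNA-seq was run on 16 siRNA libraries (8 groups of 2) and 2 libraries without siRNA, and BRG1 binding by ChIP-seq at 0 and 30 min. The siRNA files hold raw fragment counts per gene, as the authors deposited them; counting used featureCounts 1.4.6-p2 in reverse-stranded mode on GENCODE hg19 models, per the file headers. The submitters' processing notes name Trimmomatic and STAR without versions. The files without siRNA hold RPKM per transcript, as deposited by the authors, summed here per gene; no source used here names their tool. Each peak carries a score, deposited by the authors. For these the submitters' processing notes name Bowtie 1.0.0 and HOMER, and say nothing of an input.

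Genes were matched by symbol (39538 of 57820 had one, 68.4%). The 37 mitochondrial genes held 0 fragments. Counts were fitted once over all 8 groups with edgeR 4.0.16 in R 4.3.3 (filterByExpr, TMM, quasi-likelihood test, 8 residual degrees of freedom), two-sided, with Benjamini-Hochberg adjustment over 18806 genes and a call at adjusted p below 0.05. SE is the size of the log2 difference divided by the square root of its F. The fit was checked on simulated data. Depth was 50017255 to 74374857 fragments per library.

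The members, the pathway and marker lists and the tests were chosen with earlier results of these data known. Values in every library are given for the 21 members called at 1.5-fold or more in at least 1 of 11 comparisons with a mean log2 CPM of at least 3; the rest, which include 11 tested members, are given by range and count. SREBF1, SREBF2, INSIG1 and the siRNA targets were always eligible, and from each pathway list up to 4 genes with the lowest p. The E-box and CCAAT motifs were added after the data were seen. Alternatives were DESeq2 1.42.0, its size factors, no filter on low counts, a replicate block, leaving out each library, a pseudocount of 0.1 in place of 1 RPKM, and other peak windows (1 and 25 kb) and scores.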

Additional observations from a re-analysis of the deposited data

Results flagged for a closer look

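With the siRNA against FOXA1, the response of 16 members to R5020 differed from that in si-control by the interaction test (edgeR quasi-likelihood, adjusted p below 0.05 over all genes). The log2 difference of responses was above 0 for ELOVL2 (1.38), LPIN1 (1.18), ACACB (0.97), GPAM (0.78), FADS3 (0.71), ELOVL5 (0.60), FADS2 (0.55), ELOVL7 (0.49) and FADS1 (0.49). It was below 0 for AGPAT2 (-0.60), PNPLA2 (-0.51), DGAT1 (-0.51), ELOVL6 (-0.47), TECR (-0.42), HACD3 (-0.42) and ACSS2 (-0.39).

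With the siRNA against CBX3, the response of 5 members to R5020 differed from that in si-control by the interaction test (edgeR quasi-likelihood, adjusted p below 0.05 over all genes). That is 15.6% of the members tested, beside 8.99% of all genes. The log2 difference of responses was above 0 for DGAT2 (0.72) and ELOVL5 (0.57). It was below 0 for LPCAT1 (-0.64), AGPAT2 (-0.48) and ACSL1 (-0.31).

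With the siRNA against BRG1, the response of 2 members to R5020 differed from that in si-control by the interaction test (edgeR quasi-likelihood, adjusted p below 0.05 over all genes). That is 6.25% of the members tested, close to the 5.22% of all genes. The log2 difference of responses was below 0 for AGPAT2 (-0.70) and PNPLA2 (-0.68).

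Each of these genes is listed because the difference of responses itself passed the test. Many of these calls were lost without 1 library, as given with the values above. The comparisons share the si-control libraries, so a gene that appears under several siRNAs, such as AGPAT2 under all 3, is not independent evidence from each. The sign of the response itself differed between si-control and si-FOXA1 with both called for LPIN1 and GPAM, of which the GPAM rise in si-FOXA1 lost its call without si-FOXA1 0 h replicate 1 (log2 0.34), 0 h replicate 2 (0.37) or 6 h replicate 1 (0.34), and the LPIN1 fall in si-control without si-control 0 h replicate 1 (-0.23), 6 h replicate 1 (-0.27) or 6 h replicate 2 (-0.24). Groups held 2 libraries, too few for a check of single outlying libraries.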

How the results depend on the processing

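Of 1500 values recomputed for the 176 called pairs of member and comparison, 1346 kept their direction and call, 154 lost the call and 0 reversed. Without 1 library, 48 pairs lost the call; under the other settings 11 did. DESeq2-type size factors or DESeq2 moved the median of all genes by at most 0.04 (log2), and no filter on low counts by at most 0.07. With no filter on low counts, the count of members lower was 3 for the si-CBX3 response, the count higher was 5 for si-BRG1 before hormone, and 1 was higher for the difference of responses in si-BRG1, where DESeq2 also gave 1; the cause was not tested. On the RPKM scale without siRNA, 3 members were lower with a pseudocount of 0.1 and 2 after centring. Among those higher, AGPAT3 and LPCAT3 (log2 0.60 and 0.63) fell below 1.5-fold after centring (0.46 and 0.49). ACACB (log2 0.52) passed 1.5-fold with a pseudocount of 0.1 (0.81). Peaks at or above the median score lay near 1 member at 0 min and 3 at 30 min, with fewer peaks by construction.

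Leaving out 1 library in turn, the counts of members higher and lower were 9 to 12 and 1 to 3 for the si-control response, 8 to 9 and 2 to 7 for the si-BRG1 response, 8 to 10 and 0 to 2 for the si-CBX3 response, 12 to 14 and 4 to 6 for the si-FOXA1 response, 1 to 3 and 6 to 8 for si-BRG1 before hormone, 8 to 8 and 9 to 12 for si-CBX3 before hormone, 11 to 12 and 16 to 17 for si-FOXA1 before hormone, 0 to 2 and 0 to 6 for the difference of responses in si-BRG1, 1 to 3 and 1 to 2 for the difference of responses in si-CBX3, 6 to 9 and 3 to 7 for the difference of responses in si-FOXA1, and 9 to 12 and 16 to 16 for si-FOXA1 against si-CBX3. Members higher under all 4 siRNAs numbered 5 to 6 (7 with DESeq2 or its size factors, which add LPCAT1), a count added after the data were seen. A lone library is assumed to vary like the other groups.

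Whether replicate numbers in the labels pair the libraries was not settled. Of 28 pairs of groups, 7 had a correlation of same-numbered deviations over 0.1, with a range of -0.439 to 0.561 and a median of -0.0715. Between 0 and 6 h of the same siRNA it was 0.317 in si-BRG1, 0.312 in si-FOXA1, 0.15 in si-CBX3 and -0.0631 in si-control. The block was 1 term for the replicate number over all groups, so it cannot fit a pairing within a single siRNA. With the replicate number as a block, the counts higher and lower were 11 and 3 (si-control response), 9 and 4 (si-BRG1 response), 12 and 5 (si-CBX3 response), 15 and 6 (si-FOXA1 response), 3 and 8 (si-BRG1 before hormone), 8 and 10 (si-CBX3 before hormone), 12 and 16 (si-FOXA1 before hormone), 0 and 2 (difference in si-BRG1), 2 and 2 (difference in si-CBX3), 9 and 7 (difference in si-FOXA1), 14 and 16 (si-FOXA1 against si-CBX3). The block ended the calls of TECR in si-FOXA1 before hormone and of ACSL1 for the difference in si-CBX3, and no other.

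With 2 libraries per group, THRSP, with 1 to 82 fragments per library, and ELOVL2, with 13 to 114, rest on few fragments, and ME1, ACSL5 and LPIN2 could not be tested. The comparisons of si-CBX3 and si-FOXA1 with si-control cross sets of files counted with different numbers of threads. A difference between sets and a knockdown effect cannot be told apart there. The comparison of si-FOXA1 with si-CBX3 stays within the files counted with 1 thread.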

Other observations

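LPIN2 had no fragment in any of the 16 siRNA libraries and was listed at 0 in both libraries without siRNA. Its gene model (chromosome 18, 2916992 to 3013313 on hg19) lies between EMILIN2 (2847028 to 2915991), with 1 fragment over the 16 libraries, and MYOM1 (3066805 to 3220106), with 44. SMCHD1, the next coding gene before EMILIN2 (2655737 to 2805015), held 39318 fragments, with 1335 to 3724 per library. The related phosphatases LPIN1 and LPIN3 were measured in all 16 libraries.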
